A study of Mus musculus with 16 samples.

Results

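Expression of 10 genes of glucose uptake and glycolysis entry was followed by RNA-seq in mIMCD3, an immortal epithelial line derived from collecting ducts of the mouse inner medulla. The genes were chosen by name, as the rows for Slc2a1, Slc2a4, Txnip, Arrdc4, Hk1, Hk2, Pfkfb3, Pfkp, Ldha and Pdk4 among 55367 named rows. All 10 had enough counts to be tested, among 19509 genes that did. Cells were wild type (WT) or carried an Nrf2 knockout (Nrf2-/-) made with lentiviral CRISPR/Cas9 and antibiotic selection, for which the number of clones is not stated. Pretreatment lasted 5 h and used either DMSO, the vehicle, or 10 µM sulforaphane (SFN), an activator of the transcription factor Nrf2. Cells were then harvested under isosmotic conditions or moved to hyperosmotic medium. WT cells after DMSO and WT cells after SFN were each sampled under isosmotic conditions, after 1 h and after 6 h. The same isosmotic libraries were thus the reference at 1 h and at 6 h, and cannot match both in time. Changes given as hyperosmotic cannot be fully told apart from time since pretreatment or the change of medium. Nrf2-/- cells were sampled only after SFN, under isosmotic conditions and after 1 h, so the knockout was compared with WT cells that had also received SFN. The stated osmolality of the 1 h medium is 600 mOsm, and the sample labels give none for 6 h. Each of the 8 conditions had 2 libraries, which the study describes as biological replicates, and total counts per library lay between 34484296 and 50774875. Values below are CPM, counts scaled to a common library size with TMM factors, given as replicate 1 and then replicate 2. Differences are log2 fold changes with their standard error (SE), tested with edgeR's quasi-likelihood test over all 16 libraries and adjusted over 19509 genes by the Benjamini-Hochberg method. A gene is said to have risen or fallen where the adjusted p was under 0.05.

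Glucose enters most cells through facilitative transporters of the plasma membrane. Slc2a1 encodes GLUT1, the transporter of basal uptake, and Slc2a4 encodes GLUT4, the insulin-regulated transporter of muscle and fat. The alpha-arrestins Txnip and Arrdc4 hold uptake down by promoting removal of these transporters from the cell surface, and both are known targets of the glucose-sensing transcription factor MondoA with its partner Mlx. Hexokinases trap glucose as glucose 6-phosphate, phosphofructokinase commits it to glycolysis, and Pfkfb3 makes fructose 2,6-bisphosphate, the activator of phosphofructokinase. At the end of the pathway, lactate dehydrogenase turns pyruvate into lactate, and pyruvate dehydrogenase kinases such as Pdk4 keep pyruvate out of mitochondrial oxidation. Cells of the renal inner medulla live at high osmolality and low oxygen and depend largely on glycolysis.

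The labels were first checked on genes of known response. Nfe2l2, which encodes Nrf2, had 391 and 433 counts in isosmotic and 389 and 386 counts in 1 h Nrf2-/- libraries, against at least 2496 counts in every WT library. Its transcript was therefore lower but not absent in the knockout. Nrf2 target genes rose with SFN in isosmotic WT cells, with log2 fold changes of 2.03 for Hmox1, 1.43 for Nqo1, 1.33 for Srxn1, 1.22 for Gclm and 0.64 for Txnrd1 (edgeR adjusted p between 1.26e-06 and 0.0113), and these 5 were lower in the knockout under isosmotic conditions. Slc7a11, the cystine transporter, rose with SFN (log2 fold change 2.39) but was also higher in Nrf2-/- than in WT cells (0.84, edgeR adjusted p = 0.0162). After 6 h of hyperosmolarity, Nfat5, the osmotic stress transcription factor, rose by 1.70 on the log2 scale, and its targets Akr1b3 by 3.96, Slc5a3 by 4.27 and Slc6a6 by 2.04. Slc6a12, the betaine transporter, went from 0 and 0 counts to 877 and 896.

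Markers of the collecting duct were read in the same libraries. Of 16 such genes, 11 were tested, and keratin Krt8 had the highest median over libraries, at 650 to 1109 CPM. Hoxb7, Cdh1, Cdh16 and Epcam were present in every library, whereas the water channel Aqp2 had between 0 and 11 counts and the vasopressin receptor Avpr2 between 0 and 10, so defining markers of principal cells were at or near 0 in this line. Aqp3, Aqp4, Slc14a2, Tfap2b and Elf5 reached at most 30, 2, 6, 4 and 8 counts, and Gata3 ran from 5 to 301. The summed level of collecting duct markers was 2197 to 3700 CPM in WT and 3106 to 4225 CPM in Nrf2-/- libraries. Keratins led this sum, with medians of 859 CPM for Krt8, 678 for Krt18, 489 for Krt19 and 313 for Krt7. The sum therefore does not by itself show collecting duct identity. Summed markers of proximal tubule were 9.06 to 27.5 CPM in WT and 2.50 to 5.74 CPM in Nrf2-/- libraries. Of these markers Lrp2 had the highest median over all libraries, 7.12 CPM, but a minimum of 0.0537 CPM, so it did not lead in every library. Summed fibroblast markers were 2.40 to 7.47 CPM in WT and 1.38 to 2.07 CPM in Nrf2-/- libraries. Those of leukocytes and endothelium stayed at or below 10.7 CPM, and those of podocytes and thick ascending limb at or below 0.406 CPM. Of 7 muscle and fat markers, 4 were tested, and their sum reached at most 11.8 CPM, with Acta1 leading.

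The Nrf2-/- libraries at 1 h stood apart as a pair. Their chi-square statistic of difference over genes was 32.6 times its expectation, against 3.24 to 9.39 times in the other 7 pairs, and their spread enters the error of every comparison in the common fit. Members' differences between genotypes at 1 h are therefore also given without each of its libraries, as are the calls that this turns, and comparisons within WT cells were also fitted on the 12 WT libraries alone.

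After 6 h of hyperosmolarity in DMSO-treated cells, 7 of 10 genes changed (4 higher, 3 lower), where 45.9% of all genes tested did. Comparing 6 h with 1 h, 6 of 10 changed against a background of 42.4%, and after SFN 7 of 10 changed at 6 h (6 higher, 1 lower) against 47.6%. On the 12 WT libraries alone and with DESeq2 the counts were 9, 7 and 8 of 10, with Hk1 and Ldha added at 6 h with DMSO, Ldha added for 6 h against 1 h and Hk1 added at 6 h with SFN, where on the 12 WT libraries 57.6%, 54.4% and 59.7% of all genes changed. A large share of all genes changed too, so these counts are not read as a result about the 10 genes as a group, and the genes are described singly. After 1 h with DMSO, 2 of 10 fell, where 11.2% of all genes changed. After 1 h with SFN, 0 of 10 changed against 9.52%, with 3 at an unadjusted p under 0.05 and 2 called by DESeq2, while on the 12 WT libraries 3 of 10 changed against 18.3%. In Nrf2-/- cells at 1 h the edgeR count was 0 of 10 against 7.17%, with 1 at an unadjusted p under 0.05 and 1 called by DESeq2. Without replicate 1 of the Nrf2-/- 1 h libraries Hk1 (0.27, edgeR adjusted p = 0.0301) and Hk2 (0.30, edgeR adjusted p = 0.0111) were called there, and without replicate 2 Ldha was (0.31, edgeR adjusted p = 0.00511).

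Pretreatment alone moved few of these genes past the threshold. With SFN in isosmotic cells, 1 of 10 fell in the 16-library edgeR fit against 2.84% of all genes, and 3 of 10 fell on the 12 WT libraries against 15.2%. In the 16-library fit 5 of 10 had an unadjusted p under 0.05, as did 3010 of 19509 genes, and DESeq2 called 2. At 1 h the count was 0 of 10 against 0.0923%, with 1 gene at an unadjusted p under 0.05 and 1 called by DESeq2, and on the 12 WT libraries 1 of 10 rose against 0.533%. At 6 h it was 0 of 10 against 0.041%, with 0 at an unadjusted p under 0.05 and 0 by DESeq2. The knockout differed from WT in 5 of 10 genes under isosmotic conditions (2 higher, 3 lower) and in 7 of 10 at 1 h (4 higher, 3 lower), against backgrounds of 34.1% and 31.5%, and DESeq2 called 7 in each. For the difference between SFN effects at 1 h and under isosmotic conditions, 0 of 10 were called by edgeR against 0.559%, with 3 at an unadjusted p under 0.05 and 1 by DESeq2. On the 12 WT libraries 2 of 10 were called against 3.09%. For the same difference at 6 h the count was 0 of 10 against 0.759%, with 3 unadjusted and 1 by DESeq2, and 1 of 10 against 4.24% on the 12 WT libraries. For the difference between genotypes in the 1 h response it was 0 of 10 against 0.123%, with 1 unadjusted and 0 by DESeq2. Without replicate 1 of the Nrf2-/- 1 h libraries Txnip (-0.64, edgeR adjusted p = 0.0351) and Hk2 (0.35, edgeR adjusted p = 0.0469) were called for that difference, and without replicate 2 neither was (-0.28 and -0.13).

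**Figure D1:**
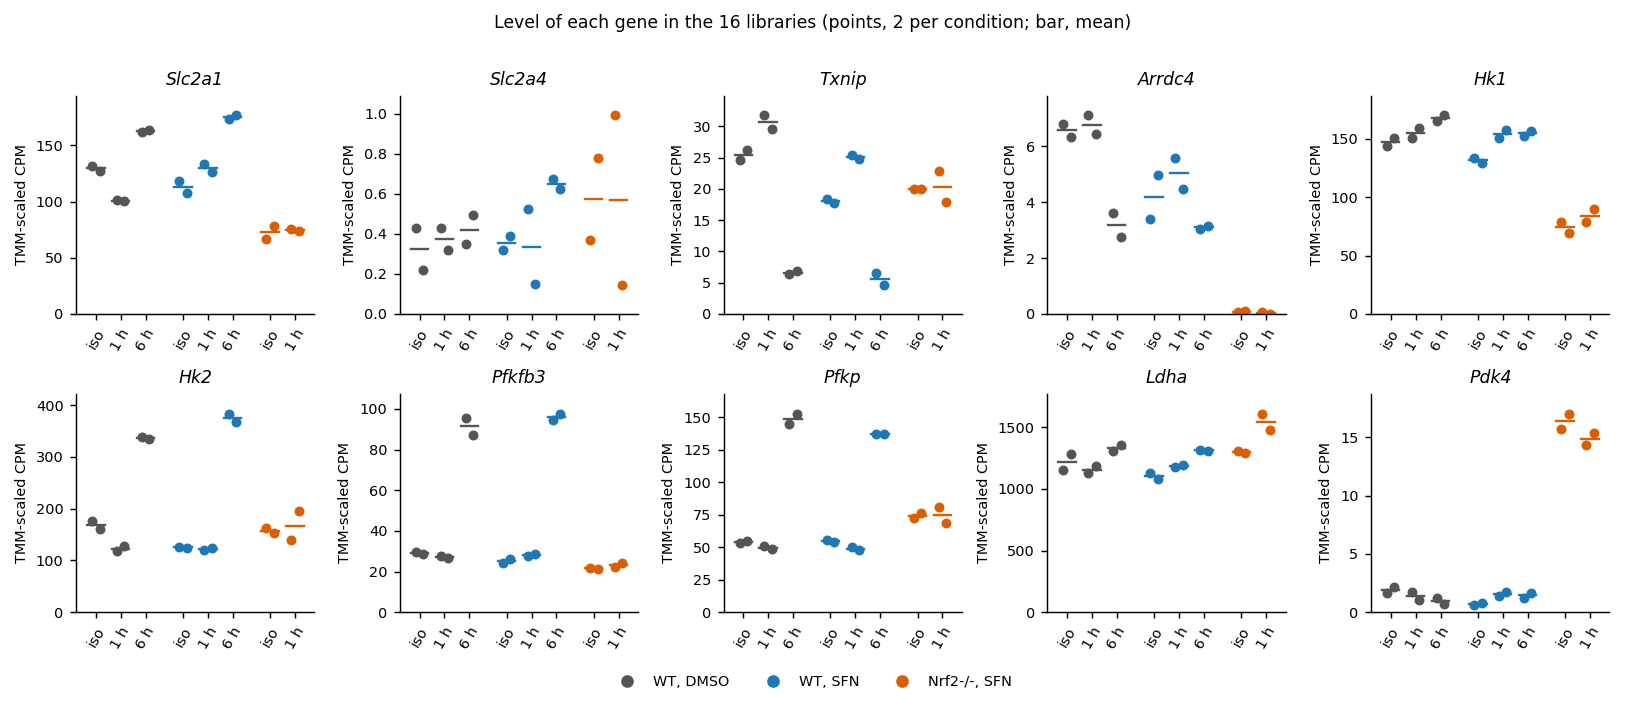
Level of each of the 10 genes (CPM after TMM scaling, linear axis from 0, own scale per gene) in the 16 libraries, 2 points per condition with a bar at their mean, for WT cells after DMSO (grey), WT cells after SFN (blue) and Nrf2-/- cells after SFN (orange). Hk2, Pfkfb3, Pfkp and Slc2a1 were highest in the 6 h libraries, where Txnip was lowest, and Pdk4 was high and Arrdc4 near 0 in the Nrf2-/- libraries.

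The 10 genes spanned a wide range of abundance. Divided by the length of the principal transcript in GENCODE, the isosmotic DMSO level was 689 ± 50.6 CPM per kb for Ldha (mean ± SD, n = 2), which stood far above the rest. Slc2a1 at 39.8 ± 0.971 and Hk1 at 38.3 ± 1.19 CPM per kb lay closer to each other than the sum of their spreads, and Hk2 followed at 30.7 ± 1.99. Lower came Pfkp at 13.0 ± 0.226, Txnip at 9.09 ± 0.425 and Pfkfb3 at 6.31 ± 0.162 CPM per kb. Arrdc4 at 1.68 ± 0.0805, Pdk4 at 0.553 ± 0.106 and Slc2a4 at 0.129 ± 0.0582 CPM per kb closed the order. The isoforms used in these cells were not resolved, so this order is approximate.

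Slc2a1 (chr4:119108711-119137983, plus strand, GRCm38) fell at 1 h before it rose at 6 h in DMSO-treated cells. Its level was 132 and 127 CPM under isosmotic conditions, 102 and 100.2 CPM after 1 h and 161 and 164 CPM after 6 h. After SFN it was 119 and 108 CPM under isosmotic conditions, 133 and 126 CPM at 1 h and 173 and 177 CPM at 6 h. In Nrf2-/- cells it was 67.0 and 78.2 CPM, and 75.9 and 73.8 CPM at 1 h. The highest libraries were thus those at 6 h and the lowest those of the knockout, and no Nrf2-/- library reached the lowest WT library. The study had singled out Slc2a1 as an example on these libraries, so its pattern with SFN is not independent of that choice.

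With DMSO, the fall of Slc2a1 at 1 h was -0.36 on the log2 scale (SE 0.094, edgeR adjusted p = 0.0228) and the rise at 6 h was 0.33 (SE 0.094, edgeR adjusted p = 0.0107). The step from 1 h to 6 h was 0.69 (edgeR adjusted p = 3.76e-05). The call at 1 h was lost without any 1 of the 4 libraries compared, with log2 fold changes from -0.39 without WT DMSO isosmotic replicate 2 to -0.34 without replicate 1. The call at 6 h was lost without WT DMSO isosmotic replicate 2 (0.29) and without WT DMSO 6 h replicate 1 (0.33) or replicate 2 (0.31). After SFN, Slc2a1 had a log2 fold change of 0.20 at 1 h (SE 0.094, edgeR adjusted p = 0.245, or 0.0479 on the 12 WT libraries) and rose by 0.63 at 6 h (edgeR adjusted p = 7.56e-05).

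The SFN effect on Slc2a1 ran in opposite directions without and with osmotic stress. Under isosmotic conditions both SFN libraries lay below both DMSO libraries (-0.20, edgeR adjusted p = 0.336), and at 1 h both lay above them (0.36, SE 0.094, edgeR adjusted p = 0.575). Of all genes tested, 48.3% (isosmotic) and 43.1% (1 h) likewise had no overlap between SFN and DMSO libraries. On the 12 WT libraries the 1 h difference was 0.36 with an edgeR adjusted p of 0.0104, and on the 4 libraries compared it was 4.74e-07. The difference between these SFN effects was 0.56 (SE 0.13, edgeR adjusted p = 0.108), and 0.54 with an edgeR adjusted p of 0.00162 on the 12 WT libraries. DESeq2 on all libraries also called Slc2a1 in both of these comparisons. The call thus depended on the libraries and the tool used. In Nrf2-/- cells Slc2a1 was lower than in WT cells by 0.64 on the log2 scale (log2 fold change -0.64, edgeR adjusted p = 0.000101) under isosmotic conditions and by 0.79 (-0.79, edgeR adjusted p = 1.50e-05) at 1 h, or -0.80 and -0.77 without replicate 1 or replicate 2 of the Nrf2-/- 1 h libraries.

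Slc2a4 (chr11:69942539-69948188, minus strand) was barely detected. Libraries held between 5 and 35 of its counts, 0.144 to 0.991 CPM, and the 2 Nrf2-/- libraries at 1 h gave both of these extremes. It was not called in any comparison, with standard errors from 0.76 to 1.12 on the log2 scale, and its difference between genotypes at 1 h was -1.18 or 1.56 without replicate 1 or replicate 2 of the Nrf2-/- 1 h libraries, neither called. Changes of this size could not be detected at this depth.

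Among 14 other hexose transporters, 8 were tested. The most abundant, the intracellular transporter Slc2a8 at a mean of 6.26 CPM, fell at 6 h after SFN (log2 fold change -0.81, edgeR adjusted p = 0.00399) and was lower in the knockout (-0.94, edgeR adjusted p = 0.00203). Slc5a2, the sodium-glucose cotransporter SGLT2 of the proximal tubule, went from 0 and 0 counts to 23 and 23 at 1 h and 21 and 28 at 6 h with DMSO. Slc2a5, the fructose transporter GLUT5, had 0 and 0 counts under isosmotic conditions and 18 and 7 at 6 h, and Slc2a9, the urate transporter, rose at 1 h (2.28, edgeR adjusted p = 0.0365). In all, 2 of 8 rose at 1 h and 2 of 8 at 6 h with DMSO, and 0 fell, where 11.2% and 45.9% of all genes changed. Slc5a2, called at both times, and Slc2a5, called at 6 h, passed the filter on low counts through hyperosmotic libraries. The filter thus partly fixed these numbers, and no conclusion is drawn from them. With SFN at 6 h, Slc2a3 (GLUT3) had 12 and 16 counts against 2 and 0. The median log2 fold change of the 8 at 6 h was 1.08 with DMSO and 0.44 with SFN, beside 0.048 and 0.085 over all genes tested. All 8 had counts far below those of Slc2a1. The filter bears on these medians too, so nothing is concluded from them.

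The 5 genes whose 8 condition means ran most like those of Slc2a1, of 6680 searched, were Bcl7b (Pearson r = 0.988), Aacs (0.984), Tle4 (0.983), Cdc42ep4 (0.981) and Anapc16 (0.980). These values describe 8 points that share libraries and depth.

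**Figure D2:**
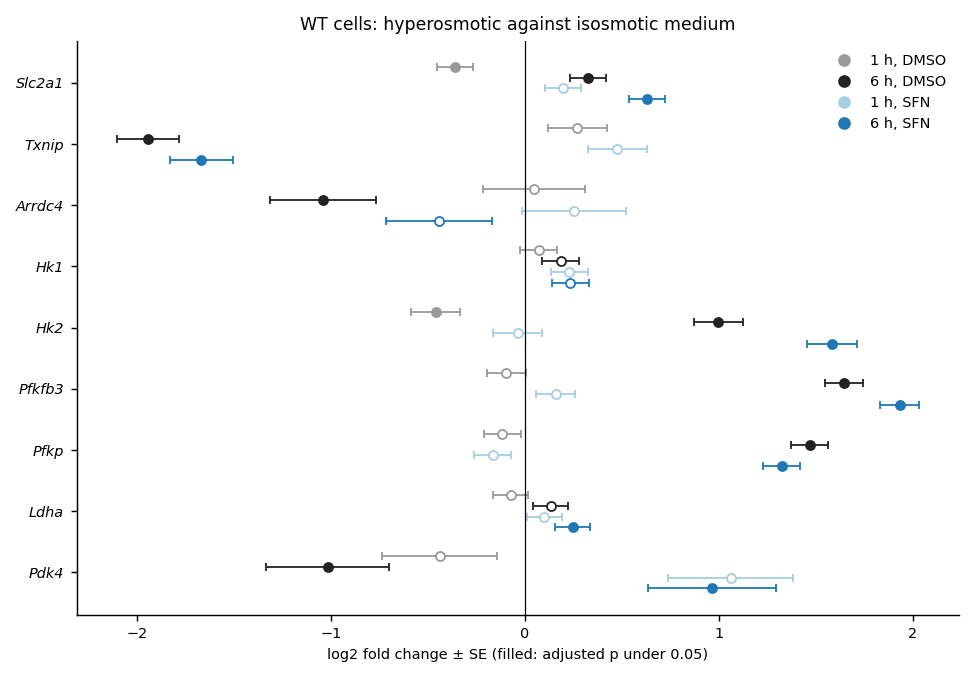
Log2 fold change with SE (x axis) of 9 of the genes (y axis, Slc2a4 left out for its few counts) in WT cells moved to hyperosmotic medium, for 1 h and 6 h after DMSO (grey, black) and after SFN (light and dark blue), with filled points where the adjusted p was under 0.05. At 6 h Hk2, Pfkfb3, Pfkp and Slc2a1 lay to the right in both pretreatments and Txnip to the left, and Pdk4 lay left after DMSO and right after SFN.

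Txnip (chr3:96557957-96561883, plus strand) and Arrdc4 (chr7:68736995-68749241, minus strand), the brakes on uptake, both fell after 6 h with DMSO. Because both are known MondoA targets and fell together, the 250 bases before their RefSeq starts on GRCm38.p6 are shown, at chr3:96557707-96557956 (plus strand) for Txnip and chr7:68749239-68749488 (minus strand) for Arrdc4. Capitals mark matches, on either strand, to 4 motifs. These are the E-box CACGTG, a pair of E-box-like sites 5 bases apart (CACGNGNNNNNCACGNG, the layout of a carbohydrate response element), the core TGGAAA bound by NFAT5, and TGACNNNGC, the core of the antioxidant response element bound by Nrf2.
Txnip: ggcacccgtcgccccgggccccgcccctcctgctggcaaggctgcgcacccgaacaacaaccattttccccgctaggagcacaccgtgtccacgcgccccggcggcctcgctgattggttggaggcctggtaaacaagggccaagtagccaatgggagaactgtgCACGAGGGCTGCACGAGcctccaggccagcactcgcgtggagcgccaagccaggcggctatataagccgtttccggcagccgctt
Arrdc4: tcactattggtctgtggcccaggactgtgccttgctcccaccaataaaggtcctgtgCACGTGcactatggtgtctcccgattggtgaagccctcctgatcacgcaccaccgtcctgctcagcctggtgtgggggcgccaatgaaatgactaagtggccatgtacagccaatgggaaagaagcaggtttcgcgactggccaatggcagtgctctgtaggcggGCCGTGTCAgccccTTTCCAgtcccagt

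The Txnip window held the pair of E-box-like sites, beginning 85 bases before the start, a match found in 16 of 32851 promoter windows of 300 bases (0.0487%). The Arrdc4 window held an E-box 193 bases before the start, as 7.15% of windows did, a TGACNNNGC match 28 bases before it (12.4% of windows hold 1 or more) and a TGGAAA match 14 bases before it (21.4%). Windows were found for 9 of the 10 genes, and E-boxes also lay in those of Pfkfb3 and Ldha. TGGAAA matches also lay in those of Hk1, Pdk4 and, at base 27 of the transcript and so outside the stretch printed, Txnip, and a TGACNNNGC match lay in that of Hk1. A match to letters is a description and does not show that a factor was bound in these cells.

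The level of Txnip under DMSO was 24.6 and 26.2 CPM under isosmotic conditions, 31.7 and 29.5 CPM at 1 h and 6.32 and 6.89 CPM at 6 h. After SFN it was 18.3 and 17.7 CPM, 25.4 and 24.8 CPM at 1 h and 6.61 and 4.70 CPM at 6 h. The 4 libraries at 6 h were the lowest of all 16 and lay well apart from the rest. Over the 4 Nrf2-/- libraries Txnip lay between 17.9 and 22.8 CPM, both of these at 1 h and within the WT range.

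The 6 h fall of Txnip was -1.94 with DMSO (SE 0.16, edgeR adjusted p = 3.45e-07) and -1.67 with SFN (SE 0.16, edgeR adjusted p = 1.34e-06), and from 1 h to 6 h it was -2.21. At 1 h the direction was the opposite, with both hyperosmotic libraries above both isosmotic ones in each pretreatment. Those libraries did not overlap in 60.9% (DMSO) and 56.6% (SFN) of all genes tested either. The 1 h difference of Txnip was 0.27 with DMSO (edgeR adjusted p = 0.307) and 0.48 with SFN (SE 0.15, edgeR adjusted p = 0.0651), the latter called on the 12 WT libraries (edgeR adjusted p = 0.00836). With SFN under isosmotic conditions Txnip had a log2 fold change of -0.49 (SE 0.15, edgeR adjusted p = 0.111, or 0.00992 on the 12 WT libraries), and at 1 h -0.29 (edgeR adjusted p = 1, or 0.0190 on the 4 libraries compared). Between Nrf2-/- and WT cells the differences were 0.15 (SE 0.15) and, at 1 h, -0.30 (SE 0.15), neither called. Without replicate 1 of the Nrf2-/- 1 h libraries the latter was -0.48 with an edgeR adjusted p of 0.0115, and without replicate 2 it was -0.14. The antisense gene Gm15441, which overlaps Txnip, had 0 to 13 counts per library. Without a stated strand setting, reads of the overlap cannot be told apart.

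Genes whose condition means ran most like those of Txnip were Kbtbd3 (r = 0.994), Afg1l (0.993), Rgs12 (0.992), Dnajc24 (0.991) and Nacc2 (0.990), again over 8 conditions and as a description.

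Arrdc4 had 6.79 and 6.34 CPM under isosmotic conditions with DMSO, 7.11 and 6.44 CPM at 1 h and 3.62 and 2.75 CPM at 6 h. With SFN it was 3.41 and 4.99 CPM, 5.58 and 4.47 CPM at 1 h and 3.05 and 3.15 CPM at 6 h. With DMSO the 6 h fall was -1.04 (SE 0.27, edgeR adjusted p = 0.00594), and from 1 h to 6 h it was -1.09 (edgeR adjusted p = 0.00493). Both calls were lost without WT DMSO 6 h replicate 2, at -0.86 and -0.91. Under isosmotic conditions SFN and DMSO libraries differed by -0.64, which was not called (SE 0.27, edgeR adjusted p = 0.257). After SFN the 6 h difference was -0.44 (SE 0.27, edgeR adjusted p = 0.204), and the difference between the 6 h effects was not called (0.60, SE 0.39, edgeR adjusted p = 0.728).

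In Nrf2-/- libraries Arrdc4 was nearly silent, with 2 and 4 counts under isosmotic conditions and 2 and 0 at 1 h, against 89 to 314 in every WT library. Summed over the libraries and scaled to depth, WT SFN cells had 52.4 times as much under isosmotic conditions (95% exact interval 23.8 to 144) and 176 times as much at 1 h (48.3 to 1454). These intervals cover counting error only. Leaving out a library of the 1 h pair leaves 0 or 2 Arrdc4 counts there. Counts this low were more often even than odd, and even counts made up 58.0% to 68.5% of genes with 1 to 10 counts in each library, so the intervals may be too narrow. Within 1000 kb of Arrdc4, 3 other genes were tested, and Ttc23, Synm and Igf1r were not lower in the knockout (log2 fold changes 0.13, 0.34 and 0.68, the last called with an edgeR adjusted p of 0.00216). These neighbours were chosen after the Arrdc4 values had been seen. The knockout and the cell line carrying it cannot be told apart here, which holds for every difference between genotypes.

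Of 4 other alpha-arrestins, 3 were tested, and at 6 h with DMSO 1 rose and 1 fell, where 45.9% of all genes changed. Arrdc1, the highest of them in CPM under isosmotic conditions with DMSO, fell from 26.0 and 28.1 CPM to 13.6 and 12.6 CPM at 6 h (-1.04, edgeR adjusted p = 0.000446). Arrdc3, an arrestin of receptor trafficking, fell at 1 h (-0.60, edgeR adjusted p = 0.0476) and rose at 6 h from 21.7 and 19.0 CPM to 29.5 and 30.8 CPM (0.56, edgeR adjusted p = 0.0196). Arrdc2 was not called (0.46, SE 0.27). At 6 h with SFN, where 47.6% of all genes changed, Arrdc1 fell (-0.81, edgeR adjusted p = 0.00296) and neither Arrdc2 (0.34) nor Arrdc3 (0.27) was called.

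The thioredoxin and glucose sensors that act with Txnip were read next. Txn1, the thioredoxin that Txnip binds, was the most abundant at 431 and 509 CPM under isosmotic conditions and 536 and 584 CPM at 6 h, a difference that was not called (0.25, SE 0.35). Mlxip, which encodes MondoA, rose at 6 h from 69.7 and 64.9 CPM to 121 and 117 CPM (0.82, edgeR adjusted p = 0.000207), while its partner Mlx fell from 29.2 and 32.3 CPM to 19.6 and 17.0 CPM (-0.75, edgeR adjusted p = 0.000613). Of these 4 genes, 1 rose and 1 fell in each pretreatment at 6 h, where 45.9% (DMSO) and 47.6% (SFN) of all genes changed, and 0 were called at 1 h (11.2% and 9.52% of all genes), with SFN in isosmotic cells (2.84%) or between genotypes (34.1% and 31.5%).

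Hexokinases differed in their response. Hk1 (chr10:62268855-62379908, minus strand), the constitutive hexokinase, had 144 and 151 CPM under isosmotic conditions with DMSO, 150 and 159 CPM at 1 h and 165 and 170 CPM at 6 h. With SFN it was 134 and 129 CPM, then 150 and 158 CPM at 1 h and 152 and 157 CPM at 6 h. The 6 h difference was 0.18 with DMSO (SE 0.096, edgeR adjusted p = 0.133, or 0.00761 on the 12 WT libraries) and 0.23 with SFN (edgeR adjusted p = 0.0577, or 0.00228 on the 12 WT libraries), and DESeq2 called both. It was 0.23 for 1 h with SFN (edgeR adjusted p = 0.173, or 0.0155 on the 12 WT libraries). Hk1 in Nrf2-/- cells stood at 78.7 and 69.5 CPM and at 78.5 and 89.8 CPM at 1 h, below every WT library. The difference from WT was -0.83 (SE 0.097, edgeR adjusted p = 1.07e-05) and at 1 h -0.87 (edgeR adjusted p = 7.38e-06), or -0.76 and -0.97 without replicate 1 or replicate 2 of the Nrf2-/- 1 h libraries.

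Hk2 (chr6:82725025-82774454, minus strand), the inducible hexokinase, fell at 1 h and rose at 6 h with DMSO. It had 177 and 161 CPM under isosmotic conditions, 118 and 128 CPM at 1 h and 339 and 335 CPM at 6 h. SFN-treated cells had 126 and 124 CPM, 120 and 124 CPM at 1 h and 384 and 367 CPM at 6 h. The 1 h fall with DMSO was -0.46 (SE 0.13, edgeR adjusted p = 0.0290) and the call was lost without any 1 of the 4 libraries compared, at values from -0.53 without WT DMSO isosmotic replicate 2 to -0.39 without replicate 1. The 6 h rise was 1.00 with DMSO (edgeR adjusted p = 1.76e-05) and 1.58 with SFN (edgeR adjusted p = 2.28e-07), and from 1 h to 6 h it was 1.46.

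SFN was followed by a lower Hk2 level under isosmotic conditions, with both SFN libraries below both DMSO libraries (-0.43, SE 0.13, edgeR adjusted p = 0.0885, or 0.000221 on the 12 WT libraries). At 6 h both SFN libraries lay above both DMSO libraries (0.16, edgeR adjusted p = 1). The difference between these effects was 0.59 (SE 0.18, edgeR adjusted p = 0.217, or 0.000573 on the 12 WT libraries). Of all genes tested, 48.3% (isosmotic) and 41% (6 h) likewise had no overlap between SFN and DMSO libraries. Hk2 in Nrf2-/- cells had 162 and 152 CPM and, at 1 h, 140 and 195 CPM. The genotype difference was 0.33 (edgeR adjusted p = 0.0570, called by DESeq2) under isosmotic conditions and 0.45 (SE 0.13, edgeR adjusted p = 0.0125) at 1 h. The latter was 0.69 without replicate 1 and 0.19 without replicate 2 of the Nrf2-/- 1 h libraries, and it was no longer called without that replicate 2 or without replicate 1 (0.43) or replicate 2 (0.47) of the WT SFN 1 h libraries.

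Of the phosphofructokinase subunits, Pfkp rose at 6 h. Pfkl, the most abundant of them per length at 94.6 ± 3.43 CPM per kb (mean ± SD, n = 2, isosmotic DMSO), and Pfkm were not called at 6 h with DMSO (log2 fold changes -0.15 and -0.13). Pfkp (chr13:6579768-6648777, minus strand), the platelet-type phosphofructokinase subunit, had 53.1 and 54.4 CPM under isosmotic conditions with DMSO, 50.8 and 48.3 CPM at 1 h and 145 and 153 CPM at 6 h. SFN-treated cells had 55.2 and 54.3 CPM, 49.9 and 47.7 CPM at 1 h and 137.2 and 137.0 CPM at 6 h. The 6 h rise was 1.47 with DMSO (SE 0.097, edgeR adjusted p = 3.50e-08) and 1.32 with SFN (edgeR adjusted p = 7.98e-08). Pfkp was higher in Nrf2-/- than in WT cells, at 72.2 and 76.4 CPM (0.44, edgeR adjusted p = 0.00221) and, at 1 h, 80.6 and 68.6 CPM (0.61, edgeR adjusted p = 0.000189, or 0.50 and 0.72 without replicate 1 or replicate 2 of that pair). Pitrm1, a mitochondrial protease gene on the opposite strand that overlaps Pfkp, had 5593 to 8817 counts per library, and without a stated strand setting reads of the overlap cannot be told apart.

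Pfkfb3 (chr2:11471433-11554077, minus strand) had the largest estimated rise of the 10 genes at 6 h in both pretreatments. It had 29.8 and 28.7 CPM under isosmotic conditions with DMSO, 27.8 and 26.9 CPM at 1 h and 95.6 and 87.2 CPM at 6 h. After SFN it was 24.2 and 26.1 CPM, 27.5 and 28.6 CPM at 1 h and 94.6 and 97.6 CPM at 6 h. The rise was 1.65 with DMSO (SE 0.10, edgeR adjusted p = 1.60e-08) and 1.93 with SFN (edgeR adjusted p = 3.03e-09). The difference between these rises was not called (0.29, SE 0.14, edgeR adjusted p = 0.587). Pfkfb3 in Nrf2-/- cells had 22.0 and 21.1 CPM, and 22.3 and 24.3 CPM at 1 h, with differences of -0.22 (edgeR adjusted p = 0.0973) and -0.27 (edgeR adjusted p = 0.0510). The latter was -0.20 and -0.34 without replicate 1 or replicate 2 of the Nrf2-/- 1 h libraries, and called without replicate 2 (edgeR adjusted p = 0.0231).

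Of 4 other enzymes of fructose 2,6-bisphosphate, 3 fell and 0 rose at 6 h with DMSO, where 45.9% of all genes changed in either direction. Pfkfb4 was not called (0.02, SE 0.21). Pfkfb1, an isoform of liver and muscle, fell by 2.55 on the log2 scale (edgeR adjusted p = 7.42e-07), Pfkfb2 by 0.77 (edgeR adjusted p = 0.0198) and Tigar, a fructose 2,6-bisphosphatase and the most abundant of the 4, by 0.43 (edgeR adjusted p = 0.0108). After SFN 2 of 4 fell, Pfkfb1 (-2.97) and Pfkfb2 (-0.86), where 47.6% of all genes changed. Pfkfb1 also fell at 1 h with DMSO (-0.86, edgeR adjusted p = 0.0139). In the knockout 3 of 4 were higher under isosmotic conditions, beside 34.1% of all genes called, with 0.86 for Pfkfb1, 0.63 for Pfkfb4 and 0.38 for Tigar.

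Of 19 other glycolytic enzyme genes, 17 were tested, and at 6 h with DMSO 6 rose, 2 fell and 9 were not called, a share close to the 45.9% of all genes that changed. Their median log2 fold change was 0.15 beside 0.048 over all genes tested. Pkm, pyruvate kinase and the highest of them in CPM, though not per length, rose from 2108 and 2207 CPM to 3892 and 4005 CPM (0.87, edgeR adjusted p = 2.24e-05). Hkdc1, a hexokinase domain protein, went from 2 and 0 counts to 130 and 124, with 16 and 23 already at 1 h. The other members that rose were Pgam2 (1.22, edgeR adjusted p = 0.0111), Pgk1, Pgam1 and Eno1, and the neuronal enolase Eno2 was among those that fell (-1.50, edgeR adjusted p = 0.00111). After SFN 7 rose and 1 fell at 6 h, where 47.6% of all genes changed. 

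In the knockout, 6 of the 17 were lower and 1 higher under isosmotic conditions, beside 34.1% of all genes called. The largest differences were -1.93 for Pgam2, the muscle phosphoglycerate mutase (edgeR adjusted p = 0.00114), -1.02 for Eno3 (edgeR adjusted p = 6.53e-05), -0.88 for Pfkm (edgeR adjusted p = 1.21e-05) and 0.72 for Pgk1 (edgeR adjusted p = 4.06e-05). The median over the 17 was -0.36, or -0.28 with genes near 0 set at a floor of 3 counts over a condition, beside -0.00091 over all genes tested. At 1 h the median between genotypes had the other sign, 0.078 beside -0.022 over all genes tested. There 5 of the 17 were called lower and 1 higher, beside 31.5% of all genes called. Pfkm and Pfkl, the other phosphofructokinase subunits, were both lower where Pfkp was higher.

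**Figure D3:**
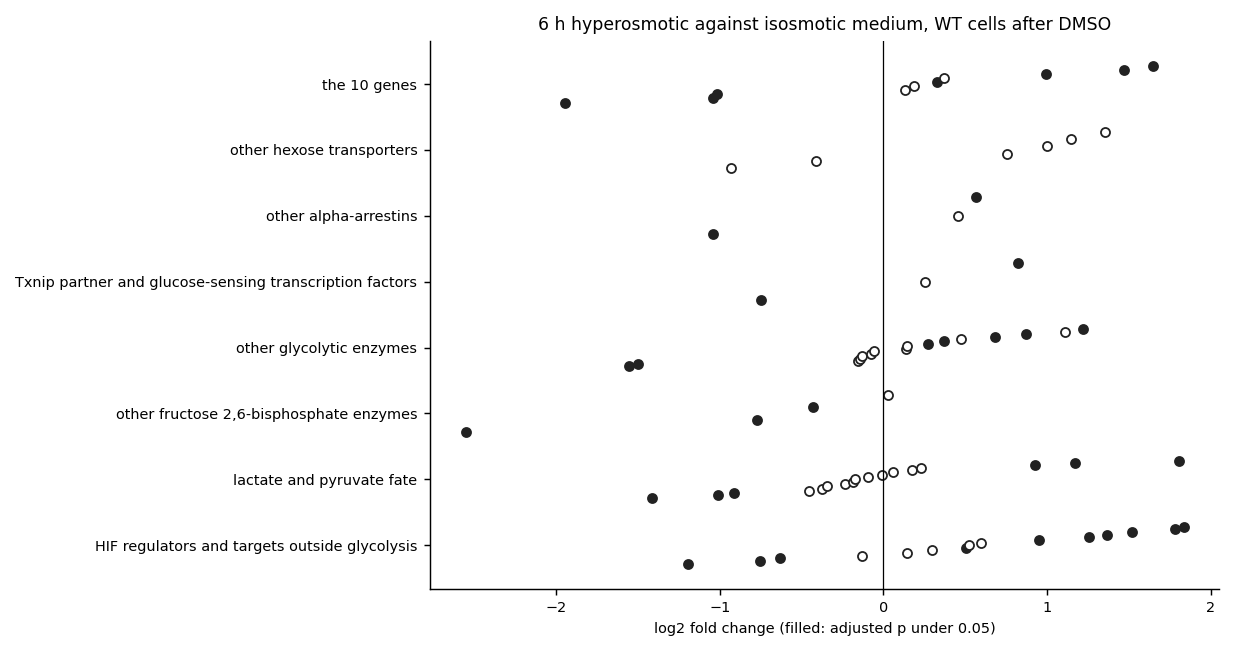
Log2 fold change (x axis) of 74 genes after 6 h of hyperosmolarity in DMSO-treated WT cells, 1 point per gene, for the 10 genes and the 7 lists of the same pathway (y axis, points spread vertically within a list), with filled points where the adjusted p was under 0.05. Left out were 5 genes with fewer than 10 counts summed over the libraries of either condition, and in the row of the 10 genes 4 called genes lie right of 0 and 3 left of it.

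Ldha (chr7:46841475-46855627, plus strand), the lactate-forming subunit of lactate dehydrogenase, was the most abundant of the 10 per length. It had 1154 and 1281 CPM under isosmotic conditions with DMSO, 1130.1 and 1183 CPM at 1 h and 1310.0 and 1358 CPM at 6 h. After SFN it was 1131 and 1084 CPM, 1178 and 1194 CPM at 1 h and 1315 and 1311 CPM at 6 h. The 6 h rise with SFN, 0.25 (SE 0.090, edgeR adjusted p = 0.0356), lost its call in 14 of the 16 fits that left out 1 library, and the 6 h difference with DMSO was 0.13 (edgeR adjusted p = 0.254, or 0.0277 on the 12 WT libraries, and called by DESeq2). Nrf2-/- libraries had Ldha levels of 1311 and 1290.4 CPM (0.23, edgeR adjusted p = 0.0589, called by DESeq2) and, at 1 h, 1611 and 1476 CPM (0.38, edgeR adjusted p = 0.00472). The latter was 0.33 and 0.44 without replicate 1 or replicate 2 of that pair and lost its call without WT SFN 1 h replicate 1, at 0.37.

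Pdk4 (chr6:5483351-5496309, minus strand), the kinase that shuts pyruvate dehydrogenase in fasting, was low in WT cells and high in Nrf2-/- cells. WT cells after DMSO had 1.67 and 2.19 CPM under isosmotic conditions, 1.77 and 1.06 CPM at 1 h and 1.22 and 0.679 CPM at 6 h. After SFN they had 0.644 and 0.815 CPM, 1.36 and 1.72 CPM at 1 h and 1.20 and 1.68 CPM at 6 h. Nrf2-/- cells had 15.8 and 17.0 CPM, and 14.4 and 15.4 CPM at 1 h, so every Nrf2-/- library was several times above every WT library. In counts these were 507 to 634 per Nrf2-/- library against 22 to 99 per WT library.

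In isosmotic cells SFN was followed by a fall of Pdk4, -1.39 on the log2 scale (SE 0.31, edgeR adjusted p = 0.0286). Without any 1 of the 4 libraries compared it was no longer called, at values from -1.58 without WT SFN isosmotic replicate 2 to -1.17 without WT DMSO isosmotic replicate 2. At 6 h Pdk4 moved in opposite directions, by -1.02 with DMSO (SE 0.32, edgeR adjusted p = 0.0164) and by 0.96 with SFN (SE 0.33, edgeR adjusted p = 0.0259). The difference between these changes was 1.98 (SE 0.46, edgeR adjusted p = 0.0733) and was called by DESeq2. It includes the lower isosmotic level after SFN, and at 6 h itself the SFN and DMSO libraries differed by 0.60 (SE 0.33, edgeR adjusted p = 1). The fall with DMSO was not called without WT DMSO isosmotic replicate 2 (-0.81) or WT DMSO 6 h replicate 2 (-0.67). The rise with SFN was not called without replicate 1 (0.81) or replicate 2 (1.15) of the isosmotic SFN libraries or without WT SFN 6 h replicate 2 (0.70).

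Between genotypes Pdk4 was higher in Nrf2-/- cells by 4.47 on the log2 scale under isosmotic conditions (SE 0.31, edgeR adjusted p = 5.16e-08) and by 3.27 at 1 h (SE 0.29, edgeR adjusted p = 7.42e-07), or 3.33 and 3.22 without replicate 1 or replicate 2 of the Nrf2-/- 1 h libraries. Of 15 tested neighbours within 1000 kb of Pdk4, which were looked at after its values had been seen, 5 were higher and 0 lower in the knockout. Of all 19509 genes tested, 34.1% were called, 3059 of them higher and 3584 lower. The neighbours are given as values only, and whether they changed together with Pdk4 was not tested. The nearest of them, Asb4 at 50.3 kb, was higher by 1.19 (edgeR adjusted p = 0.0321), and Col1a2, with a mean of 5.25 counts per library, was called too. Peg10, an imprinted retrotransposon-derived gene 723 kb away, was higher by 2.07 (edgeR adjusted p = 7.61e-07), and Ppp1r9a by 0.95, while Slc25a13, the nearest tested gene on the other side, was at -0.11.

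**Figure D4:**
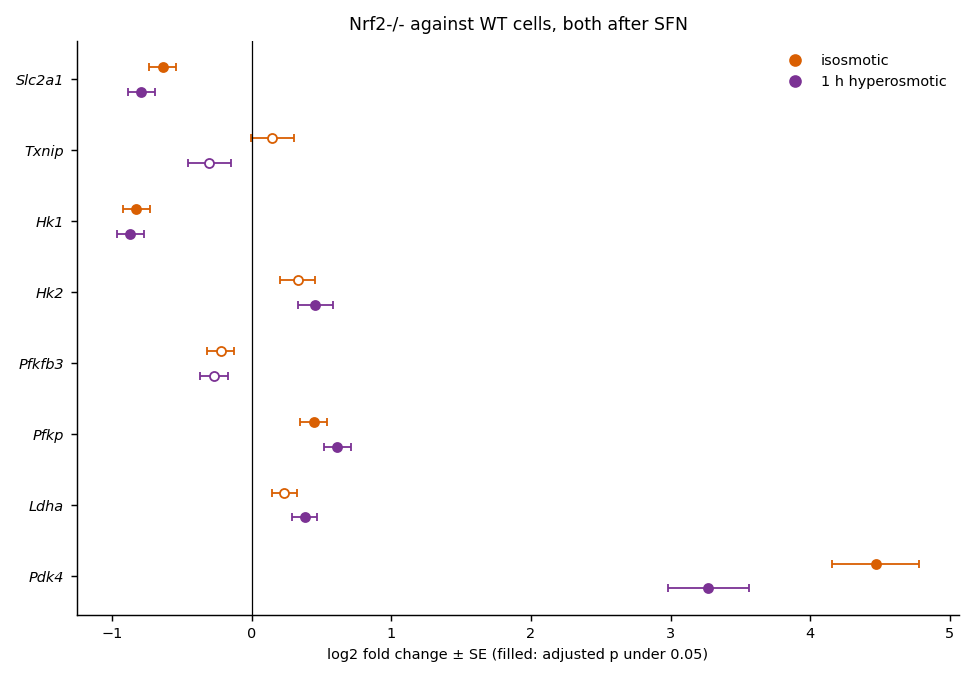
Log2 fold change with SE (x axis) of Nrf2-/- against WT cells, both after SFN, under isosmotic conditions (orange) and after 1 h of hyperosmolarity (purple) for 8 of the genes (y axis), with filled points where the adjusted p was under 0.05. Slc2a1 and Hk1 lay below 0 and Pfkp and Pdk4 above it in both conditions, and Arrdc4, near 0 counts in the knockout, and Slc2a4, with few counts throughout, are not drawn.

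Genes that set the fate of pyruvate and lactate gave no common direction. Of 18 tested, 3 rose and 3 fell at 6 h with DMSO, where 45.9% of all genes changed, with a median log2 fold change of -0.13. Pdp2, a phosphatase that reactivates pyruvate dehydrogenase, rose from 17.2 and 18.0 CPM to 59.5 and 63.4 CPM (1.80, edgeR adjusted p = 1.64e-06). Slc16a1, the lactate transporter MCT1, rose from 199 and 196 CPM to 447 and 441 CPM (1.17, edgeR adjusted p = 1.76e-06), whereas Slc16a3, the lactate exporter MCT4, fell by 1.42 on the log2 scale (edgeR adjusted p = 0.000306) and the dehydrogenase subunit Dld by 1.01 (edgeR adjusted p = 6.48e-07). Bsg, the transporters' chaperone and the most abundant of the list, had a log2 fold change of 0.23 (SE 0.19). After SFN, Slc16a1 (1.38), Pdp2 (1.36) and Pdp1 (1.32) rose at 6 h, among 4 that rose and 4 that fell, where 47.6% of all genes changed. At 1 h with DMSO, Pdp1 fell (-0.98, edgeR adjusted p = 0.00553).

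In the knockout, 11 of these 18 differed under isosmotic conditions, 6 higher and 5 lower, where 34.1% of all genes did. Slc16a3 had 8 and 12 counts against 282 and 310 in WT cells after SFN (-4.57, edgeR adjusted p = 5.43e-08). Mpc1, a subunit of the mitochondrial pyruvate carrier, was lower (-1.78, edgeR adjusted p = 0.00190), and Pdk3 was higher (1.24, edgeR adjusted p = 1.80e-05). Slc16a7, the lactate transporter MCT2, had 6 and 17 counts against 0 and 0, and 12 and 4 in WT cells after DMSO.

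Pdk4 is a known target of PPAR receptors in fat oxidation, and 8 other such targets were read beside it. In isosmotic Nrf2-/- cells 6 of 8 were lower and 0 higher, beside 34.1% of all genes called, with a median log2 fold change of -0.85, so Pdk4 differed in the direction opposite to theirs. Angptl4, an inhibitor of lipoprotein lipase, was lower by 4.20 (log2 fold change -4.20, edgeR adjusted p = 7.53e-08), Acot1 was at -3.70 and Acadvl at -0.95. At 1 h the genotype difference of Angptl4 was smaller (-1.71, edgeR adjusted p = 0.000126), as it rose in Nrf2-/- cells (2.07, edgeR adjusted p = 0.00153). Its 1 h response differed between genotypes by 2.49 (edgeR adjusted p = 0.0257). At 6 h with DMSO, 1 of 8 rose and 2 fell, where 45.9% of all genes changed, among them Acadm (-0.99, edgeR adjusted p = 0.000394).

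Many glycolytic genes are also targets of hypoxia-inducible factors (HIF), so 15 regulators and targets of HIF outside glycolysis were counted. At 6 h with DMSO 7 rose and 3 fell, where 45.9% of all genes changed, with a median log2 fold change of 0.52 beside 0.048 over all genes tested. Hif1a, with the highest mean CPM of these over all libraries, rose from 124 and 115 CPM to 409 and 412 CPM (1.78, edgeR adjusted p = 3.44e-06). Epas1, which encodes HIF-2 alpha, rose by 1.83, the stress gene Ndrg1 by 1.52 and the angiogenic factor Vegfa by 1.37 (edgeR adjusted p between 2.00e-07 and 0.000246). Those that fell were Arnt, the shared HIF partner, Bnip3 and Adm. Adm, which encodes adrenomedullin, had also fallen at 1 h (-2.05, edgeR adjusted p = 0.000281) and with SFN in isosmotic cells (-2.20, edgeR adjusted p = 0.000416), where 2.84% of all genes changed and it was the only member of the list called. At 6 h with SFN it rose (0.90, edgeR adjusted p = 0.0175), and the SFN effect on it differed from the isosmotic one by 2.94 at 1 h (edgeR adjusted p = 0.00195) and by 2.10 at 6 h (edgeR adjusted p = 0.0196).

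In isosmotic Nrf2-/- cells 5 of these 15 were higher and 6 lower, beside 34.1% of all genes called. Hif1a was higher by 0.56 (edgeR adjusted p = 0.0286). Egln3, a HIF prolyl hydroxylase, had 24 and 23 counts against 622 and 958 in WT cells after SFN (-4.72, edgeR adjusted p = 1.59e-11). Epas1 was lower too (-3.50, edgeR adjusted p = 1.81e-05). Adm had 2 and 0 counts against 63 and 103, and the carbonic anhydrase Car9 had 0 and 3 against 10 and 32.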

How the data were processed

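RNA-seq libraries of mIMCD3 cells were grouped by the sample labels into 8 conditions of 2, described as biological replicates; p-values measure only the spread between these samples. Reads had been aligned to mm10, with Hisat2 per the study's methods, while the submitters' processing notes name Bowtie2. Both name SAMtools and featureCounts. Versions, annotation and strand setting are not given in the sources used here. The authors deposited raw counts per gene symbol for each library. Rows without a gene name (2 and 3 rows in 2 libraries) were left out. The extraction label speaks of primary cells where all others give mIMCD3. Replicate numbers of the isosmotic SFN libraries differ between titles and file headers, and titles were used.

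Counts were fitted in edgeR 4.0.16 (R 4.3.3) with TMM factors, its filter on low counts and the robust quasi-likelihood test, and adjusted over 19509 genes. Alternatives were DESeq2 1.42.0, RLE size factors, no filter, only the libraries compared, only the 12 WT libraries, a replicate block and leaving out each library. A fit of 14 libraries without the Nrf2-/- 1 h pair was chosen after seeing the data. The fit was tested on simulated counts. Gene models came from GENCODE M21 (GRCm38) and promoters from RefSeq (GRCm38.p6).

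The 10 genes and all lists were chosen with earlier results of these data known. Named from each list were at most the 4 largest called changes per main comparison and the most abundant gene, and the label-check genes whatever their values. Further genes, such as Ttc23, Synm, Asb4, Col1a2, Peg10, Ppp1r9a, Slc25a13, Pfkl, Pgam1, Eno1, Arnt and Bnip3, were named after their values were seen. Some genes of these lists are not reported here by name.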

Additional observations from a re-analysis of the deposited data

Results flagged for a closer look

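For Slc2a1, Hk2 and Pdk4 an estimated effect had opposite signs in different settings, with all libraries of each setting on the same side. Such separation was common. SFN and DMSO libraries did not overlap in 48.3% (isosmotic), 43.1% (1 h) and 41% (6 h) of all genes tested. For 1 h against isosmotic libraries after SFN the share was 56.6% in WT and 37% in Nrf2-/- cells. The SFN effect on Slc2a1 was negative under isosmotic conditions and positive at 1 h and 6 h of hyperosmolarity, with differences between the effects of 0.56 (SE 0.13, edgeR adjusted p = 0.108) and 0.30 (SE 0.13, edgeR adjusted p = 0.527). That on Hk2 was negative under isosmotic conditions and positive at 6 h, with a difference of 0.59 (SE 0.18, edgeR adjusted p = 0.217). The 1 h response of Pdk4 after SFN was 1.06 in WT cells (SE 0.32, edgeR adjusted p = 0.0529). In Nrf2-/- cells it was -0.14 (SE 0.25, edgeR adjusted p = 0.836). Neither was called, and the estimate in Nrf2-/- cells was smaller than its SE. The difference between them was -1.20 (SE 0.41, edgeR adjusted p = 0.474), or -1.15 and -1.25 without replicate 1 or replicate 2 of the Nrf2-/- 1 h libraries. These 4 differences did not pass the threshold in the 16-library fit.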

How the results depend on the processing

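The single-gene values called in the 16-library fit were refitted under the alternatives that apply to them. Direction and call were kept in 738 of these refits, the call was lost in 48 and the direction reversed in 0. With DESeq2 and on the 12 WT libraries, 9 of the 10 genes were called for 6 h with DMSO, 7 for 6 h against 1 h and 8 for 6 h with SFN, and DESeq2 called 7 for genotype in isosmotic cells. The number called for SFN under isosmotic conditions was 2 with no filter or DESeq2 and 3 on the 12 WT libraries, the libraries compared or 14 libraries. For SFN at 1 h it was 1 on the 12 WT libraries, with DESeq2 or on 14 libraries and 2 on the libraries compared. For 1 h with DMSO it was 1 with RLE size factors or no filter. For 1 h with SFN it was 1 with RLE or no filter, 2 with DESeq2 or on the libraries compared and 3 on the 12 WT or 14 libraries. For 1 h in Nrf2-/- cells it was 1 with DESeq2, and for genotype at 1 h it was 4 on the libraries compared. For the SFN difference at 1 h it was 1 with DESeq2 or on the libraries compared and 2 on the 12 WT or 14 libraries. For that at 6 h it was 1 with no filter, DESeq2, the 12 WT libraries or the libraries compared and 2 on 14 libraries. The 14-library fit was chosen after seeing the data.

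When single libraries were dropped (16 fits), the number called ranged from 0 to 3 for SFN under isosmotic conditions, 0 to 1 at 1 h and 0 to 0 at 6 h. It ranged from 0 to 2 for 1 h, 4 to 8 for 6 h and 5 to 7 for 6 h against 1 h with DMSO, and from 0 to 3 and 5 to 8 for 1 h and 6 h with SFN. It was 0 to 2 for 1 h in Nrf2-/- cells, and 5 to 8 for genotype in isosmotic cells and at 1 h. For the differences between effects it was 0 to 3 (SFN, 1 h), 0 to 2 (SFN, 6 h) and 0 to 2 (genotype, 1 h). With 1 library left in a condition, that library was assumed to vary like the others.

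Replicate numbers did not pair the samples. The correlation of deviations between same-numbered libraries ran from -0.0794 to 0.123 over 28 pairs of conditions, with 1 over 0.1. A replicate block changed no count of calls: 1, 0 and 0 of the 10 genes were called for SFN under isosmotic conditions, at 1 h and at 6 h, 2 and 7 for 1 h and 6 h with DMSO, 0 and 7 with SFN, and 5 and 7 for genotype. RLE scaling moved the median of all genes by at most 0.088 on the log2 scale. With 2 libraries per condition, small changes of genes with few counts, Slc2a4 above all, could not be resolved.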
